A study of Mus musculus with 4 samples.

Results

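Collagens and the glycoproteins, proteoglycans and cross-linking enzymes that surround them were examined in mouse breast cancer cells that carry or lack Pak1, a serine/threonine kinase activated by the small GTPases Rac and Cdc42. A gene belonged to the set when the name of its array probe was that of a collagen chain (Col, a number, a, a number) or of 1 of 26 named matrix genes, and the brightest of its probes over the 4 arrays stood for it. This gave 66 genes, 40 collagens and 26 others, measured by 101 of the 39429 probes and taken from 31829 gene names. Of these 66, 46 genes were bright enough to be tested.

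The cells came from mammary tumours of MMTV-Neu mice, whose Neu (Her2) transgene is expressed mainly in mammary epithelium under a promoter of the mouse mammary tumour virus. The 4 samples formed 2 groups of 2, Pak1 -/- and Pak1 +/+, both Her2 positive, both kept in low calcium medium with horse serum, and both starved of serum for 3 h and then given epidermal growth factor (EGF) for 15 min. No sample was left without EGF. The design states that the cells of each group derive from 2 different tumours, and the study calls them cell lines, so that a group stands for 2 tumours at most and the p-values measure the spread between these samples. Total RNA was labelled with Cy3 and hybridised to 1 array per sample.

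The extracellular matrix is a network of proteins that cells secrete and then bind. Fibrillar collagens form cables, collagen IV, nidogens and perlecan form the sheet-like basement membrane under epithelia, and fibronectin and the matricellular proteins connect that network to receptors on the cell surface. Breast epithelium normally rests on a basement membrane, whereas most interstitial collagen is secreted by fibroblasts, and the composition of both changes in tumours.

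Every value below is a normalized log2 intensity of a probe, so that a difference of 1 is a 2-fold change, and a probe was called dim where its signal was not well above the local background. A gene was called higher or lower in Pak1 -/- when the adjusted p from limma was under 0.05. The median spot intensity was 322 to 331 on the 4 arrays, and 62.2% to 70.4% of the probes were well above background. All arrays lay on 1 slide, the Pak1 -/- samples at positions next to each other and the Pak1 +/+ samples at the others, so that an effect of position cannot be told apart from one of genotype. The Pak1 probe read no less in Pak1 -/- (12.21 and 12.25, against 12.04 and 12.04 in Pak1 +/+, with an adjusted p of 0.070 in limma), and every direction given here therefore rests on the labels. As a check of the tissue, all 9 epithelial marker genes were tested, and their summed level was 20.17 to 20.19 in Pak1 -/- and 19.89 to 19.92 in Pak1 +/+. Of these genes, 3 were higher, Cdh1 (1.19), Krt8 (0.57) and Krt18 (0.27), and 0 were lower, beside 22.8% and 28.2% of all genes tested. The 6 others did not pass and ran from Krt19 (-0.64) to Esrp1 (0.14). Of 11 fibroblast markers, 4 (Pdgfrb, Dpt, Dpp4 and Twist2) were dim on all 4 arrays, 0 of the 5 tested were higher and 2 were lower, beside the same shares of all genes. The summed level of that list was 11.06 to 11.11 in Pak1 -/- and 11.37 to 11.76 in Pak1 +/+. Of 7 leukocyte and 7 endothelial markers, 5 and 2 were well above background on all 4 arrays, among them Itgam, Cd3e and Kdr. Of the 5 leukocyte markers tested 1 was lower, and 0 of the 4 endothelial ones passed.

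The probes themselves are 60 bases long. Collagen chains hold a glycine at each 3rd amino acid, and this is legible in the probes that lie inside the triple helix as codons GGN 9 bases apart. Of all 39429 probes, 44 (0.112%) held at least 5 GGN codons, each 9 bases from another, in a reading frame with no stop codon, and 5 of these were among the 59 collagen probes of the set. They are shown because they read the collagenous part of the chain itself, and 3 of them (Col4a4, Col14a1 and Col16a1) are compared below with probes elsewhere in the same gene. The glycine codons are in capitals, and the coordinates are those of the array files (mouse build mm9, NCBI37).
Col4a4, chr1:82515563-82515622, minus strand: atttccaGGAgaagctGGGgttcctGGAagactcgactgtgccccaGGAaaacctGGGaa
Col14a1, chr15:55347733-55347792, plus strand: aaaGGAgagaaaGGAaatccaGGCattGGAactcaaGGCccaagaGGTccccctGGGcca
Col15a1, chr4:47283786-47283845, plus strand: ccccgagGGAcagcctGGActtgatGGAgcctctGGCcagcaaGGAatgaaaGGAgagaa
Col16a1, chr4:129756457-129756516, plus strand: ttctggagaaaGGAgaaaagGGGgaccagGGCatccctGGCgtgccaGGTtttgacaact
Col25a1, chr3:130270497-130270556, plus strand: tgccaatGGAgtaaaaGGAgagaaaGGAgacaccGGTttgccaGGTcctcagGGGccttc

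Of the 46 genes tested, 22 (47.8%) were higher in Pak1 -/- and 6 (13.0%) were lower, and 18 did not pass the threshold. Over all 21959 genes tested in the same way, 51.0% passed it, 22.8% higher and 28.2% lower, beside 60.9% of the set. With a 2-fold change required as well, 17 genes of the set were higher (37.0%) and 4 were lower (8.70%), beside 7.00% and 5.62% of all genes. The median log2 difference was 0.52 in the set and -0.06 over all genes, and the median size of a difference, whatever its direction, was 0.95 and 0.32. In 35 of the 46 genes (76.1%) the values of 1 group all lay above those of the other, beside 77.6% of all genes, which is close to the background. The increase was uneven, and was seen in 11 of 27 collagens tested, of which 5 fell (median 0.10), and in 11 of 19 of the other genes, of which 1 fell (median 0.77).

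**Figure D1:**
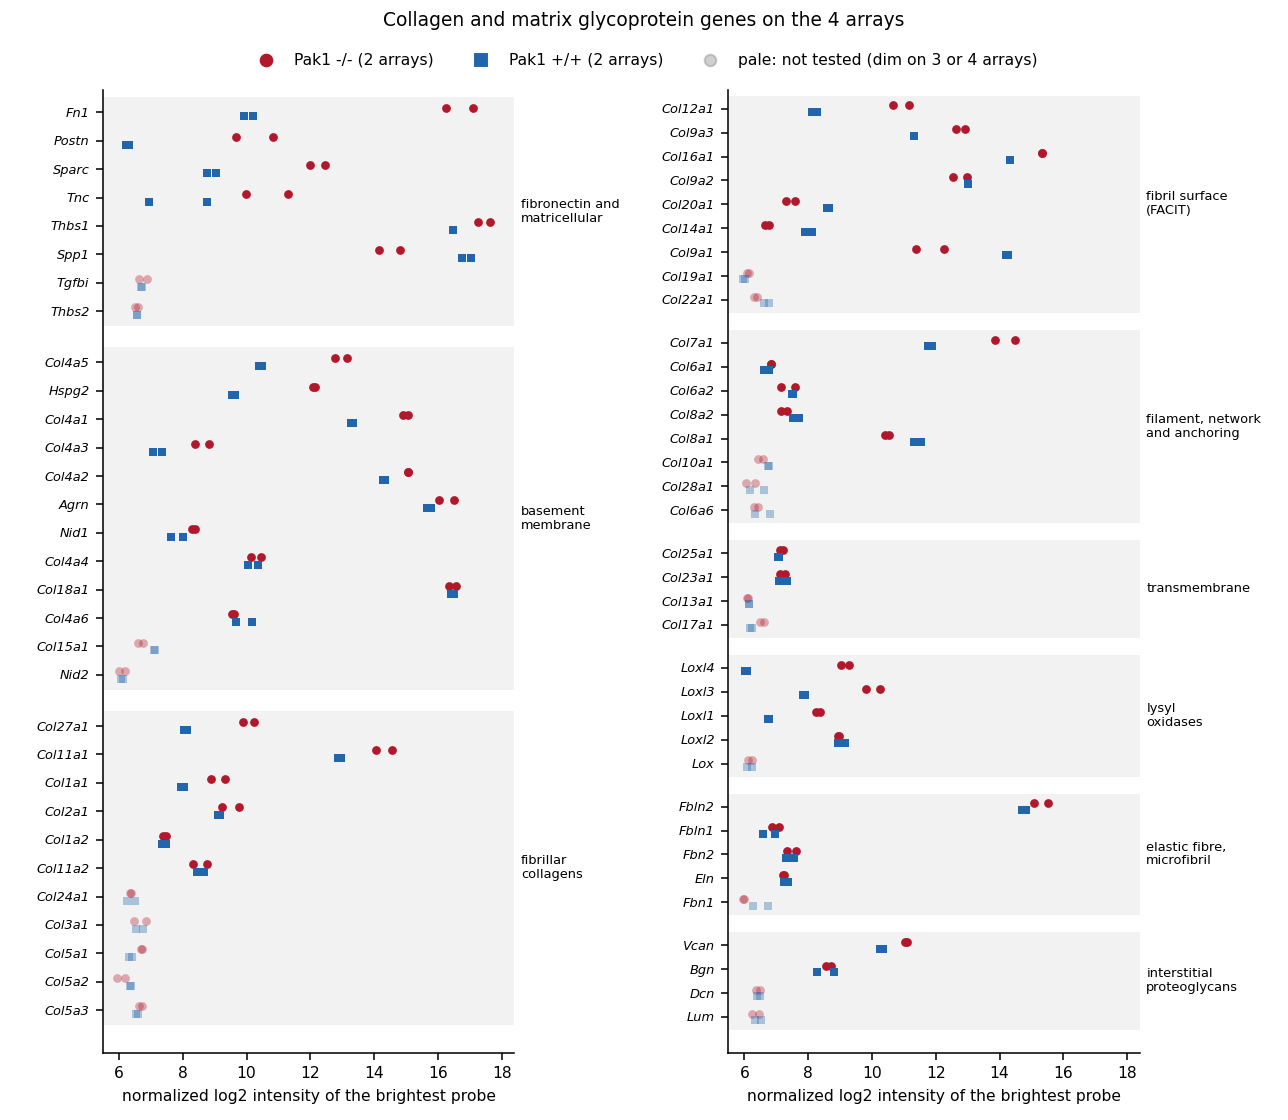
Normalized log2 intensity (horizontal axis) of the brightest probe of each of the 66 genes, grouped by role. Circles are the 2 Pak1 -/- arrays and squares the 2 Pak1 +/+ arrays, and the 20 genes not tested are pale. Fn1 has the widest gap between the groups, and the pale genes lie near the lower end of the scale on all arrays.

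Fibronectin and the matricellular glycoproteins held some of the largest differences. These proteins modulate how cells attach to the matrix. All 6 of the 8 genes that could be tested passed the threshold, 5 higher and 1 lower in Pak1 -/-, beside 22.8% and 28.2% of all genes. However, Postn entered the test through the Pak1 -/- arrays alone. In each of the 6 genes the 2 groups did not overlap, as in 77.6% of all genes. The Pak1 -/- samples thus carried much more signal for fibronectin, periostin, osteonectin and tenascin C, and less for osteopontin.

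Fn1 encodes fibronectin, the glycoprotein whose fibrils cells assemble on their surface through integrins. Its probe (chromosome 1, 71632116 to 71632175) read 17.11 and 16.24 in Pak1 -/- and 9.92 and 10.21 in Pak1 +/+. The difference of 6.61 (SE 0.31, 97.7-fold) was the largest fitted in the set (adjusted p in limma 0.00027), although Postn, which has only a bound, gave 6.71 against 6.62 for Fn1 with processed signals. Both Pak1 -/- arrays lay far above both Pak1 +/+ arrays, and the gap between the groups was several times the gap between replicates.

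Postn encodes periostin, a matricellular protein of collagen-rich tissue, and its probe read 10.84 and 9.66 in Pak1 -/- and 6.31 and 6.22 in Pak1 +/+. Since it was dim on both Pak1 +/+ arrays, the difference of 3.98 (SE 0.39, adjusted p in limma 0.0018) is given as a bound, at least 10.4-fold higher in Pak1 -/-. Sparc, which encodes osteonectin, a collagen-binding glycoprotein, read 12.45 and 11.99 against 8.77 and 9.03, a difference of 3.32 (SE 0.19, adjusted p in limma 0.00043). By these probes the groups were apart in both genes, and in both of them Pak1 -/- replicate 1 was the higher of its pair. A second Sparc probe read 6.96 and 6.74 in Pak1 -/- and 6.60 and 6.92 in Pak1 +/+. It was well above background on 1 array only and was not tested. Tnc, the gene of the hexameric glycoprotein tenascin C, read 11.31 and 9.97 in Pak1 -/- and 6.93 and 8.76 in Pak1 +/+. Its difference of 2.79 had the largest standard error of the set (0.75, adjusted p in limma 0.033), because both pairs of replicates were far apart, and its call was lost under 6 of 13 alternatives. A second Tnc probe read 10.70 and 9.44 against 6.27 and 6.21, dim on both Pak1 +/+ arrays, and was at least 9.19-fold higher in Pak1 -/- (fitted difference 3.83, adjusted p in limma 0.0023), so that the high value of Pak1 +/+ replicate 2 was seen with 1 of the 2 probes.

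Thbs1, the gene of thrombospondin 1, an inhibitor of angiogenesis that also binds latent TGF-beta, had the highest mean intensity of the set. It read 17.63 and 17.24 in Pak1 -/- and 16.47 and 16.48 in Pak1 +/+, a smaller rise of 0.96 (SE 0.14, adjusted p in limma 0.0058). Spp1, the gene of the secreted phosphoprotein osteopontin, went the other way. Its probe (chromosome 5, 104868502 to 104868561) read 14.16 and 14.82 in Pak1 -/- and 17.03 and 16.76 in Pak1 +/+, a fall close to that of Col9a1 (-2.41, SE 0.24, 5.30-fold, adjusted p in limma 0.0019). Both Pak1 -/- arrays were below both Pak1 +/+ arrays, while both groups remained bright. Thbs2 was dim on all 4 arrays, and Tgfbi was well above background on 1.

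Of 12 basement membrane genes, 10 were tested, 6 were higher in Pak1 -/-, 0 were lower and 4 did not pass, with a median log2 difference of 0.66. Over all genes tested, 22.8% were higher and 28.2% lower. Collagen IV is built as trimers of set composition, from the chains alpha 1 and alpha 2, alpha 3, alpha 4 and alpha 5, or alpha 5 and alpha 6, and all 6 chain genes were well above background on all 4 arrays. Of these, 4 were higher by their brightest probe.

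Col4a5 read 13.15 and 12.79 in Pak1 -/- and 10.48 and 10.40 in Pak1 +/+ (difference 2.53, SE 0.14, adjusted p in limma 0.00042). Hspg2, the gene of perlecan, the large heparan sulphate proteoglycan of basement membranes, read 12.15 and 12.07 against 9.55 and 9.65 (difference 2.51, SE 0.08, adjusted p in limma 0.00012). In both genes the replicates were close and the groups well separated by these probes, but a second Hspg2 probe, well above background on all 4 arrays, rose by 0.89. Col4a1, measured by 10 spots, rose by 1.68 and its partner Col4a2 by 0.76, from 14.33 and 14.26 in Pak1 +/+ to 15.05 and 15.06 in Pak1 -/-. Their genes are neighbours that start next to each other on opposite strands of chromosome 8: in the annotation of GRCm38.p6 they share 85 bases. Col4a3 rose by 1.39, and Nid1, the gene of nidogen 1, which links laminin to collagen IV, was called higher by 0.52, a call lost under 5 of 13 alternatives.

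Of the genes not past the threshold, Agrn (agrin, a heparan sulphate proteoglycan) read 16.51 and 16.03 against 15.65 and 15.77, with no overlap, and just missed it (0.56, adjusted p in limma 0.052), but passed under 3 alternatives. Col18a1, the precursor of endostatin and among the 5 brightest genes of the set, read 16.56 and 16.35 in Pak1 -/- and 16.40 and 16.50 in Pak1 +/+, and its groups overlapped (0.01, SE 0.10). A second Col18a1 probe gave 0.02. Col4a4 (0.09) and Col4a6 (-0.34) did not pass by their brightest probes, yet each had another probe that did. Nid2 was dim on all 4 arrays and Col15a1 was well above background on 1.

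The Col4a6 probes disagreed most of all genes in the set. The brightest probe (chromosome X, 137601433 to 137601491, minus strand) read 9.54 and 9.62 in Pak1 -/- and 10.16 and 9.67 in Pak1 +/+. The second probe, which lies further along the gene in the direction of transcription (137599990 to 137600049), read 11.52 and 11.22 in Pak1 -/- and 6.84 and 6.68 in Pak1 +/+, a difference of 4.61 (SE 0.13, adjusted p in limma 9.9e-05). The first probe was well above background on all arrays, and its groups, although they did not overlap, were separated by less than the spread within Pak1 +/+, while the second was well above background on both Pak1 -/- arrays and on 1 Pak1 +/+ array. Col4a6 and Col4a5 lie head to head on chromosome X, with 1274 bases between their outermost annotated starts in GRCm38.p6. The 200 bases before each start are shown because the higher Col4a6 probe and Col4a5 moved in the same direction, with those before Spp1, which fell, for contrast. Capitals mark any match, on either strand, to the CCAAT box, to GGGCGG (the GC box), to TATAAA (the TATA box) or to TGANTCA (the AP-1 site). The sequences are from RefSeq, GRCm38.p6, which had a promoter entry for 47 of the 66 genes.
Col4a5, chrX:141475170-141475369, plus strand: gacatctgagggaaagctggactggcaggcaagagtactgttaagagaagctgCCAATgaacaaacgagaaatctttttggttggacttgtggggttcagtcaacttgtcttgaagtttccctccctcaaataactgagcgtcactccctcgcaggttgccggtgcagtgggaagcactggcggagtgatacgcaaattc
Col4a6, chrX:141474096-141474295, minus strand: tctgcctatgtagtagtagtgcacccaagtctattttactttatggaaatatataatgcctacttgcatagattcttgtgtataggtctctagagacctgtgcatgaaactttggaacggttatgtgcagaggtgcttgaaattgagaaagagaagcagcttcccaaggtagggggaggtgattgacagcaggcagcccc
Spp1, chr5:104434911-104435110, plus strand: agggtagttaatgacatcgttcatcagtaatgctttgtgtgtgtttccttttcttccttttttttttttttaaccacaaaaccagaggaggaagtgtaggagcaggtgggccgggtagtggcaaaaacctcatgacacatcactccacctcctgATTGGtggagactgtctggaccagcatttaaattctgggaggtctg

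The Col4a5 and Spp1 stretches held 1 CCAAT match each, and the Col4a6 stretch held 0 matches to the 4 motifs. In the 200 bases before the start, 29.3% of the 32851 promoter entries held the CCAAT box, 31.0% the GC box, 9.96% the TATA box and 5.48% the AP-1 site. A match is a run of letters and no evidence of binding.

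The fibrillar collagens rose in part. Of 11 genes, 6 were tested, 3 were higher in Pak1 -/-, 0 were lower and 3 did not pass (median 0.74), beside 22.8% higher among all genes. Col27a1 read 10.22 and 9.88 in Pak1 -/- against 8.14 and 8.03 in Pak1 +/+, a difference of 1.97. Col11a1, a minor chain that nucleates fibrils, read 14.57 and 14.05 against 12.87 and 12.95 and rose by 1.40. Col1a1, the alpha 1 chain of collagen I, read 9.31 and 8.88 against 8.03 and 7.93 and rose by 1.12 (SE 0.16, adjusted p in limma 0.0051). The other chain of collagen I, Col1a2, did not follow: it read 7.48 and 7.39 against 7.35 and 7.47 (difference 0.03, SE 0.08). Col2a1 (0.36) and Col11a2 (-0.00041) also did not pass. Col3a1, Col5a1, Col5a2, Col5a3 and Col24a1 were dim on all 4 arrays, as were Dcn and Lum, the genes of the small proteoglycans decorin and lumican, whereas neither chain of collagen I was dim on any array. In bulk RNA, fewer cells of a type and less RNA per cell cannot be told apart.

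Collagens that sit on the surface of other fibrils (FACIT, fibril-associated collagens with interrupted triple helices) changed in both directions. Of 9 genes, 7 were tested, and 3 were higher in Pak1 -/-, 3 were lower and 1 did not pass, beside 22.8% higher and 28.2% lower among all genes. Col12a1 read 11.17 and 10.66 in Pak1 -/- and 8.12 and 8.27 in Pak1 +/+ and was the collagen with the largest rise (2.72, SE 0.19, adjusted p in limma 0.00073). Col9a3 rose by 1.47. Col16a1 read 15.32 and 15.32 against 14.32 and 14.34, a difference of 0.98. A second probe close to the first gave 0.99. The glycine-rich probe shown above, elsewhere in the gene, gave 1.07, so that 3 probes gave nearly the same value.

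The falls were seen in Col9a1, Col14a1 and Col20a1. Col9a1 read 12.27 and 11.38 in Pak1 -/- and 14.25 and 14.21 in Pak1 +/+ (-2.40, SE 0.30, adjusted p in limma 0.0034). Col14a1 read 6.77 and 6.65 against 7.91 and 8.12 (-1.31, SE 0.10, adjusted p in limma 0.00099), and its probe was well above background on 1 of the 2 Pak1 -/- arrays. It was -2.79 with processed signals and -0.77 when its probes were averaged. Col20a1 read 7.31 and 7.60 against 8.65 and 8.58 (-1.17), and a second probe fell by 1.55. All of these were lower on both Pak1 -/- arrays than on either Pak1 +/+ array, as the groups of 77.6% of all genes did not overlap. Collagen IX is a trimer of the chains encoded by Col9a1, Col9a2 and Col9a3, and the 3 genes moved apart: Col9a1 fell, Col9a3 rose and Col9a2 did not pass (-0.25, SE 0.15). The second Col9a1 probe, at a different place in the gene, read 7.35 and 7.17 against 7.11 and 7.35 and did not pass (0.03). The glycine-rich probe of Col14a1 did not pass either (-0.23, adjusted p in limma 0.075). Col19a1 and Col22a1 were dim on all 4 arrays.

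**Figure D2:**
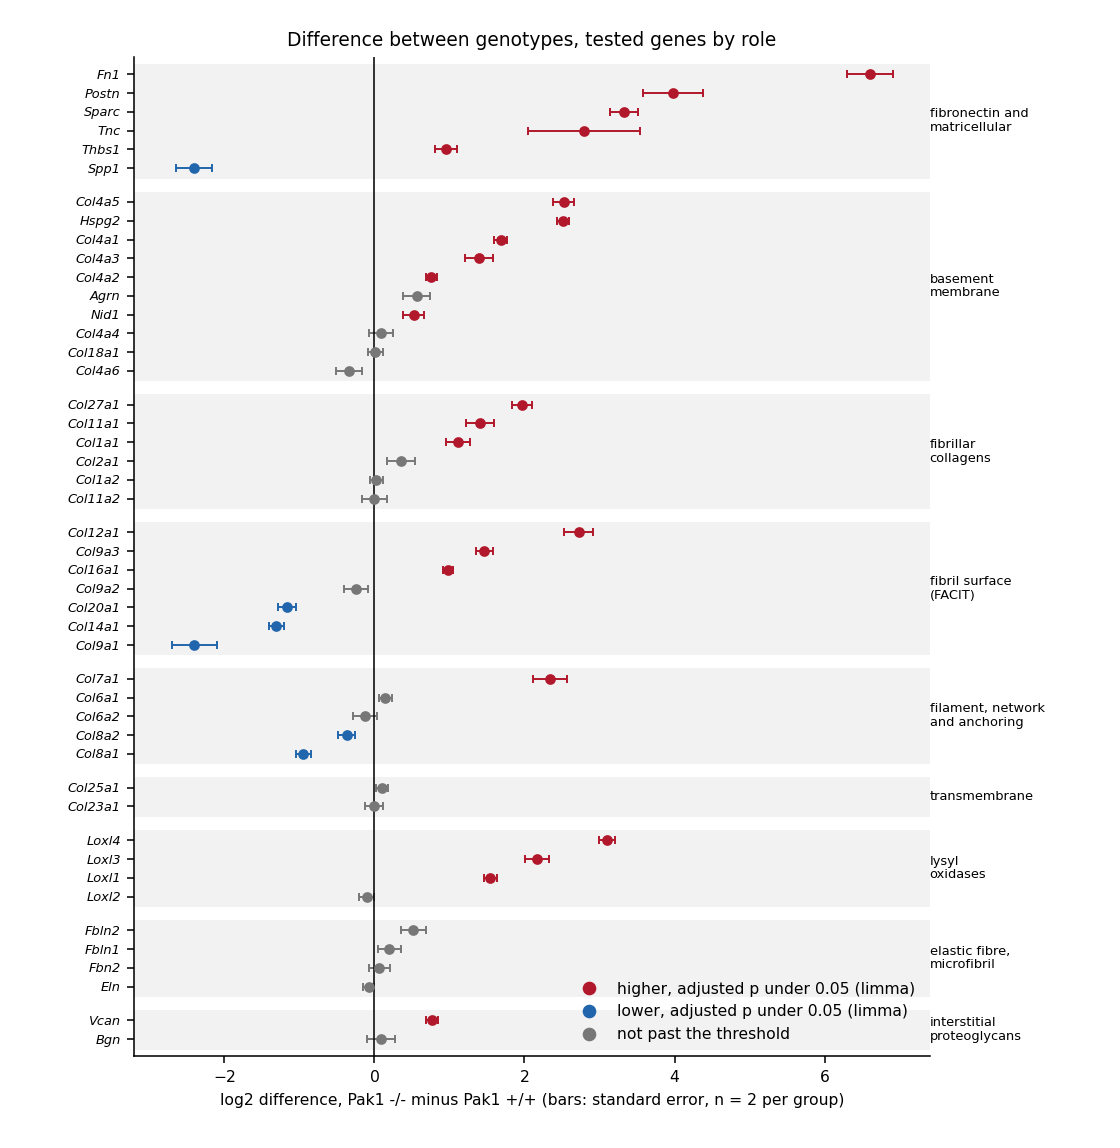
Log2 difference, Pak1 -/- minus Pak1 +/+, of the brightest probe of the 46 genes tested, by role. Points are the fitted differences and bars their standard errors (n = 2 per group), with 22 genes higher, 6 lower and 18 not past the threshold. The fibronectin group runs from Spp1 (-2.41) to Fn1 (6.61), and the FACIT group from Col9a1 (-2.40) to Col12a1 (2.72).

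Among the filament, network and anchoring collagens, 5 of 8 genes were tested, 1 was higher and 2 were lower, beside 22.8% and 28.2% of all genes. Col7a1, the chain of the anchoring fibrils that fasten the basement membrane of squamous epithelia to the stroma, read 14.48 and 13.84 in Pak1 -/- and 11.76 and 11.88 in Pak1 +/+ and rose by 2.34 (SE 0.22, adjusted p in limma 0.0016). Of the network-forming chains of collagen VIII, Col8a1 was lower. Col8a1 read 10.54 and 10.41 against 11.32 and 11.52 (-0.95, SE 0.10), and Col8a2 read 7.34 and 7.16 against 7.53 and 7.72 (-0.37, adjusted p in limma 0.043). By these probes neither gene overlapped between the groups, as in 77.6% of all genes. However, a second Col8a2 probe pointed the other way, 7.50 and 7.29 in Pak1 -/- against 6.50 and 6.50 in Pak1 +/+, where it was dim on both arrays (a bound of at least 1.44-fold higher in Pak1 -/-). The call of Col8a2 was lost under 9 of 13 alternatives, and no direction is drawn for it. Col6a1 (0.14) and Col6a2 (-0.13), chains of the beaded filaments of collagen VI, did not pass, and Col6a6, Col10a1 and Col28a1 were dim on all 4 arrays. Of the transmembrane collagens, Col23a1 (-0.0018) and Col25a1 (0.10) did not pass, and Col13a1 and Col17a1 were dim throughout.

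Lysyl oxidases are the copper-dependent enzymes that cross-link collagen and elastin. Of 5 genes, 4 were tested, 3 were higher in Pak1 -/- and 0 were lower, beside 22.8% and 28.2% of all genes. Loxl4 read 9.03 and 9.28 in Pak1 -/- and 6.07 and 6.03 in Pak1 +/+. Being dim on both Pak1 +/+ arrays, it was at least 4.87-fold higher in Pak1 -/- (adjusted p in limma 0.00014), and a second probe gave at least 4.19-fold. Loxl3 read 10.26 and 9.81 against 7.89 and 7.84 (difference 2.17, SE 0.16). Loxl1 read 8.38 and 8.24 against 6.75 and 6.78, dim on both Pak1 +/+ arrays, and was at least 2.68-fold higher by that probe, while a second probe, well above background on 3 arrays, rose by 0.72. In these 3 genes every Pak1 -/- value of the brightest probe exceeded every Pak1 +/+ value, as the groups of 77.6% of all genes did not overlap. Loxl1 and Loxl4 passed the filter through the Pak1 -/- arrays alone, and with all 4 arrays required to be well above background, the count of lysyl oxidases higher was 1.

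Loxl2 was the exception, with 4 probes that did not give 1 answer. The brightest gave -0.10 and did not pass, and another at its 3' side gave 0.25. The other on chromosome 14 (70092141 to 70092200) read 8.85 and 8.18 in Pak1 -/- and 6.32 and 6.52 in Pak1 +/+, at least 3.14-fold higher in Pak1 -/- (fitted difference 2.10, adjusted p in limma 0.0026). The remaining probe, lower by 0.26, maps to chromosome 2 and was designed to a predicted transcript similar to Loxl2, so that it does not measure the gene on chromosome 14. Lox itself was dim on all 4 arrays.

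Genes of elastic fibres and microfibrils did not pass the threshold by their brightest probes. Fbln2 (fibulin 2), among the 5 brightest genes of the set, read 15.51 and 15.07 in Pak1 -/- and 14.72 and 14.82 in Pak1 +/+, with no overlap, and narrowly missed it (0.52, adjusted p in limma 0.054). It passed under 3 alternatives, cyclic loess (adjusted p in limma 0.037), the filter for all 4 arrays (0.040) and the fit without Pak1 -/- replicate 2 (0.015). A second Fbln1 probe, dim on both Pak1 +/+ arrays, was called higher in Pak1 -/- (0.48, adjusted p in limma 0.018, a bound of 1.03-fold). By their brightest probes Fbln1 (0.20), Fbn2 (0.07) and Eln (-0.08) were closer to 0, and Fbn1 was dim on all 4 arrays. Of the interstitial proteoglycans, Vcan, the gene of the large chondroitin sulphate proteoglycan versican, read 11.10 and 11.03 in Pak1 -/- and 10.24 and 10.35 in Pak1 +/+ by its brightest probe and rose by 0.77. A second Vcan probe, at the 3' side of the gene and annotated to another transcript variant, read 10.96 and 10.75 against 7.78 and 7.55 and rose by 3.19 (adjusted p in limma 0.00017). Bgn (biglycan) did not pass (0.09).

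**Figure D3:**
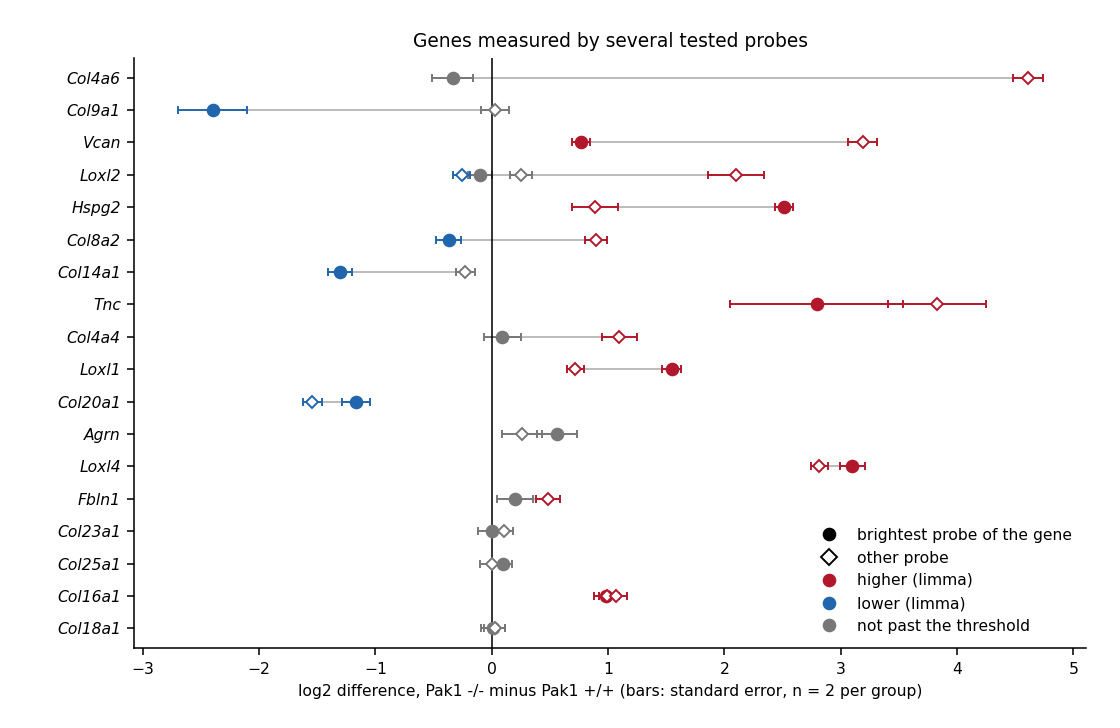
Log2 difference, Pak1 -/- minus Pak1 +/+, of each tested probe of the 18 genes with at least 2 tested probes, ordered by the distance between their lowest and highest probe. Filled circles are the brightest probe, open diamonds the others, and bars standard errors (n = 2 per group). Calls differed between probes in 7 genes, and the distance was largest in Col4a6 (4.95).

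The choice of probe mattered for some genes. Of the 18 genes with at least 2 tested probes, 11 had the same call from every tested probe and 7 did not (Col4a6, Col9a1, Loxl2, Col8a2, Col14a1, Col4a4 and Fbln1). In Col4a4, the glycine-rich probe shown above read 8.19 and 7.82 in Pak1 -/- and 7.00 and 6.81 in Pak1 +/+ and rose by 1.10 (adjusted p in limma 0.0045), whereas the brightest probe gave 0.09. The probes lie at different places in their genes, and transcript variants were not resolved. The filter also bears on direction: 5 of the 46 genes (Col6a1, Fbln1, Loxl1, Loxl4 and Postn) were kept through the Pak1 -/- arrays alone and 0 through the Pak1 +/+ arrays alone.

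The Pak1 -/- replicates leaned in 1 direction within this set and not over the array. Pak1 -/- replicate 1 exceeded replicate 2 for 34 of the 46 genes (73.9%, median 0.17), beside 50.3% of all genes (median 0.0012), while Pak1 +/+ replicate 1 exceeded replicate 2 for 20 of the 46. The median log2 difference of the set was 0.32 without Pak1 -/- replicate 1 and 0.68 without replicate 2. Basal cell markers moved with the set. Of the 7 myoepithelial markers, 5 of the 6 tested were higher in Pak1 -/- (22.8% of all genes), with Krt17 (4.92), Krt14 (2.83) and Acta2 (1.69) leading, and the summed level of the list was 16.41 to 16.53 in Pak1 -/- and 14.21 to 14.25 in Pak1 +/+. The part of such cells in the matrix differences was not tested.

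The genes that make, trim and bind collagen were read as lists of their own. Collagen is hydroxylated and glycosylated in the endoplasmic reticulum, folded with a dedicated chaperone, and cut at both ends by proteinases after secretion. Of 26 genes of collagen biosynthesis, 24 were tested, 7 were higher and 5 lower in Pak1 -/- (median 0.12), beside 22.8% higher and 28.2% lower among all genes, shares near those of the list. The genes with both groups measured that were higher by at least 2-fold were P3h2 (2.40), Plod1 (1.79), Serpinh1 (1.72), Bmp1 (1.16) and P4ha2 (1.07). Colgalt2 was dim on both Pak1 +/+ arrays and was at least 1.93-fold higher (fitted difference 1.76). P3h2, P4ha2 and Plod1 encode prolyl and lysyl hydroxylases, Colgalt2 a collagen galactosyltransferase, Serpinh1 the collagen chaperone HSP47 and Bmp1 the C-proteinase of procollagen. Serpinh1 read 15.76 and 15.71 in Pak1 -/- and 13.99 and 14.04 in Pak1 +/+.

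The genes lower by at least 2-fold were Adamts14 (-2.87), Pcolce (-2.27), Pcolce2 (-1.94) and P3h3 (-1.11). Adamts14 encodes an N-proteinase of procollagen, and Pcolce and Pcolce2 encode enhancers of the C-proteinase. Adamts14 read 11.43 and 11.75 in Pak1 -/- and 14.47 and 14.45 in Pak1 +/+, and Pcolce 10.57 and 10.24 against 12.65 and 12.69. Bmp1 and its enhancers thus had opposite signs, with no overlap between the groups in any of the 3, as in 77.6% of all genes.

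Of 9 genes of collagen receptors, 7 were tested, 6 were higher in Pak1 -/- and 0 were lower (median 0.75), beside 22.8% higher among all genes. Of these 6, Itga1 and Itga11 were dim on both Pak1 +/+ arrays and were kept through the Pak1 -/- arrays alone. The count was 3 when all 4 arrays had to be well above background, and 3 when a 2-fold change was required. The discoidin receptor Ddr1 read 14.01 and 13.92 in Pak1 -/- and 12.48 and 12.55 in Pak1 +/+ (difference 1.45), the integrin chain Itga2 rose by 1.17, and Itga11 was at least 2.39-fold higher (fitted difference 1.38). Of 34 other matrix glycoproteins and proteoglycans, 24 were tested, 9 were higher and 4 lower (median 0.05), again beside 22.8% and 28.2% of all genes, and 3 of the 9 (Ogn, Efemp1 and Ccdc80) passed the filter through the Pak1 -/- arrays alone. Ogn (osteoglycin) and Efemp1 (fibulin 3) were dim on both Pak1 +/+ arrays and were at least 6.12-fold and 3.53-fold higher in Pak1 -/-. Among the genes measured in both groups, those past 2-fold were Fbln5 (1.55) and Ltbp3 (1.09), which rose, and Sparcl1 (-2.80) and Comp (-1.55), which fell. Sparcl1, a relative of Sparc, read 7.87 and 7.79 in Pak1 -/- and 10.63 and 10.63 in Pak1 +/+, opposite in direction to Sparc itself.

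**Figure D4:**
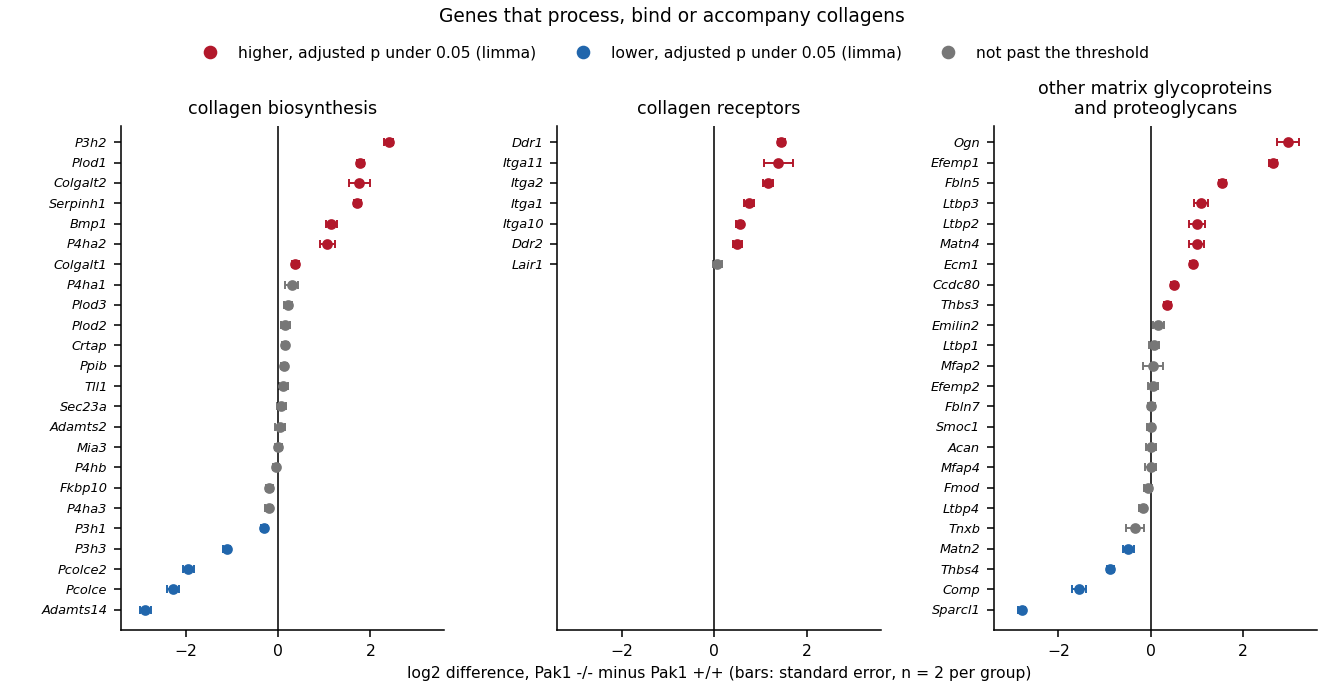
Log2 difference, Pak1 -/- minus Pak1 +/+, of the tested genes of collagen biosynthesis (24), collagen receptors (7) and other matrix glycoproteins and proteoglycans (24). Bars are standard errors (n = 2 per group) and colours the limma call. The receptors lie to the right of 0, while the other lists run from Adamts14 and Sparcl1 on the left to P3h2 and Ogn on the right. Colgalt2, Itga1, Itga11, Ogn, Efemp1, Ccdc80 and Fbln7 were dim on both Pak1 +/+ arrays and Thbs4 on both Pak1 -/- arrays.

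An exact permutation test of 2 against 2 cannot give a p below 0.333, and the p-values of limma combine each probe's own spread with that shared across all probes. Of the 28 genes called, 25 kept their call under each of the 13 alternatives tried that gave a value, and the exceptions were Col8a2, Nid1 and Tnc. These 13 leave out the stricter thresholds, and with a 2-fold change required 17 genes stayed higher and 4 lower. Of the 18 not called, 9 passed under at least 1 alternative. The median of the set fell to 0.088 when dim genes were not filtered out.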

How the data were processed

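Total RNA of 4 samples was measured on single-colour Agilent arrays of 60-base probes. The deposited scanner output, made with Feature Extraction 9.5.3.1, gives each spot's intensity and local background on a linear scale, with no scaling between arrays. A log2 table of the same arrays, deposited as well, was normexp corrected and quantile normalized by the authors. Following those steps, background was corrected with normexp (offset 50, which understates changes of dim genes) in limma 3.58.1 (R 4.3.3), control spots were left out, log2 values were quantile normalized, outlier spots were dropped and spots of a probe were averaged. The 27229 of 39429 probes well above background on at least 2 arrays were fitted with lmFit and eBayes, genotype as the only term, two-sided, with Benjamini-Hochberg adjustment over all of them (14132 under 0.05). The script was tested on simulated data. A probe dim on both arrays of a group has a bound, the bright group's mean over the higher of its own signal and the lowest signal well above background, per array.

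Every gene past the threshold is named. Values on each array are given for the largest changes, for the genes with a bound of at least 2-fold and for the 5 brightest, and for some further genes and probes chosen after their values were seen. Genes of the other lists are named at 2-fold. The members and lists were chosen with earlier results of these data known. RefSeq held 97 of the 101 probe accessions, all under the same symbol. The array number limits precision, and exons were not assigned, since no annotation of mm9 was used here. Alternatives were other background corrections, scalings, filters, thresholds and probe rules, the deposited log2 table, a replicate block and leaving out each sample.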

Additional observations from a re-analysis of the deposited data

How the results depend on the processing

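Over all alternatives, 17 to 26 genes were higher and 4 to 7 lower in Pak1 -/-, with the lowest counts where a 2-fold change was required. The median log2 difference of the set stayed within the spread between replicates except without the filter on dim probes (0.088), where the 20 dim genes enter it, and when a sample was left out: it was 0.32 without Pak1 -/- replicate 1 and 0.68 without Pak1 -/- replicate 2. Leaving out a sample leaves 1 array in its group, which limma then takes to vary like the other group. Tnc lost its call under 6 of 13 alternatives (differences of 1.88 to 3.56, adjusted p in limma up to 0.16, the highest without Pak1 -/- replicate 1), Nid1 under 5 (0.34 to 0.82) and Col8a2 under 9. Processed signals widened the differences of some low signals, to 6.71 for Postn, 5.53 for Loxl4, 2.60 for Loxl1, 2.35 for Col4a3 and -2.79 for Col14a1. Averaged probes gave -0.77 for Col14a1, -1.19 for Col9a1, 1.70 for Hspg2 and 1.98 for Vcan. When all tested probes of a gene were averaged, Col8a2 (0.26), Col4a6 (2.14), Loxl2 (0.50) and Col23a1 (0.052) changed sign, as their probes differ, and the Loxl2 average includes the probe on chromosome 2. Of the 18 genes not called, 9 passed under at least 1 alternative: Agrn, Fbln2, Col2a1 and Col6a2 without Pak1 -/- replicate 2 (adjusted p in limma 0.014, 0.015, 0.016 and 0.042), Agrn also with cyclic loess (0.035) and with the filter for all 4 arrays (0.038), Col9a2 without Pak1 -/- replicate 1 (0.025), Col4a6 without Pak1 +/+ replicate 2 (0.020, lower), and Col4a6 (0.00059, higher), Loxl2 (0.012), Fbln1 (0.023) and Col4a4 (0.032) with averaged probes. With all 4 arrays required to be well above background, 1 lysyl oxidase and 3 collagen receptors were higher, in place of 3 and 6. The other changes of sign were in values that did not pass. Processed signals with 75th percentile scaling gave 0.032 for Col11a2, -0.22 for Col18a1 and 0.0060 for Col23a1. Normexp values so scaled gave 0.016 and -0.19 for the first 2. Col11a2 was 0.057 with cyclic loess and 0.025 in the deposited log2 table, and Col23a1 was 0.00046 without an offset. Leaving out samples gave -0.18 to 0.35 for Bgn, -0.22 to 0.22 for Col11a2, -0.095 to 0.12 for Col18a1, -0.037 to 0.087 for Col1a2, -0.13 to 0.13 for Col23a1, -0.077 to 0.26 for Col4a4, -0.34 to 0.089 for Col6a2, -0.072 to 0.20 for Fbn2 and -0.21 to 0.011 for Loxl2.

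The samples share replicate numbers across the groups, but the differences between replicates did not run together (r = -0.03 across probes, which are not independent). This shows no replicate effect shared by the groups, but cannot tell whether the numbers pair the samples. With the replicate number as a block, 22 genes were higher and 5 lower, the median was 0.52, and Col8a2 alone lost its call.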
